A study of Mus musculus with 18 samples.

Results

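The integrated stress response genes described here are 39 genes of a curated list, chosen by name: stress transcription factors, their regulators and effectors, secreted factors, amino acid synthesis genes, amino acid transporters and cytosolic aminoacyl-tRNA synthetases. The list was chosen with earlier results of these data known. All 39 are among the 23420 genes in the files, and all 39 passed the filter on low counts that left 14162 genes for testing. They were followed in bulk RNA sequencing of direct cardiac reprogramming, in which a retrovirus carrying Mef2c, Gata4 and Tbx5 on 1 transcript (MGT) drives fibroblasts towards a cardiomyocyte-like state. The fibroblasts were primary cells from hearts of neonatal CD1 mice, and every library analysed here came from cells that received MGT, so there is no MGT-free control in these comparisons. Samples came in 2 sets, of which the second held 12 libraries in 4 groups of 3, with short hairpin RNAs (shRNAs) that target nothing (shNT), Mtfr1l (shMtfr1l), Opa1 (shOpa1) or both Mtfr1l and Opa1 (the double knockdown). Mtfr1l encodes a mitochondrial outer membrane protein, and Opa1 a GTPase needed for fusion of the inner mitochondrial membrane. The titles date replicates 1, 2 and 3 of each group to days 7, 8 and 9, and the descriptions call them biological replicates without naming animals, cultures or pools. The first set gave 1 labelled reprogramming sample with shNT and 1 with shMtfr1l.

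The integrated stress response joins several kinases that phosphorylate the translation initiation factor eIF2 when cells meet amino acid shortage, unfolded proteins, haem shortage or mitochondrial stress. Phosphorylated eIF2 lowers most protein synthesis but raises translation of the mRNA of Atf4, a transcription factor whose targets include amino acid transporters, amino acid synthesis genes and tRNA synthetases. Because Atf4 is controlled largely in translation, its mRNA level need not follow its protein. In heart and muscle, this programme and the secreted factors Gdf15 and Fgf21 are known for being switched on by mitochondrial dysfunction, disturbed Opa1 included.

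The second set had 16205862 to 25317069 gene counts per library, at which 3 counts correspond to 0.117 to 0.183 CPM (counts scaled to an equal library total). Both knockdowns were visible in the target genes. Mtfr1l was at 71.9 ± 4.17 CPM (SD, n = 3 here and for every group below) in shNT, 16.4 ± 2.88 in shMtfr1l and 69.6 ± 3.34 in shOpa1, and the double knockdown had 27.2 ± 4.15. Opa1 was at 63.1 ± 8.33, 72.1 ± 1.35, 8.96 ± 3.16 and 18.3 ± 2.34 CPM in the same order, so both targets were higher in the double knockdown than in the matching single knockdown. The genotype field of the Opa1 groups reads shOpa1, shOpa2 and shOpa3 over the replicates, and the titles, which read shOpa1 throughout, were followed. The cells kept fibroblast markers at high levels. In sum, 10 such genes were at 32354 to 35137 CPM in shNT and 32002 to 33948 in shMtfr1l. They were at 37076 to 38070 CPM in shOpa1, above every shNT library, and 35107 to 37317 in the double knockdown. In shOpa1 against shNT, 3 of these 10 were called higher and 4 lower. The 10 cardiomyocyte markers summed to 2405 to 2448 CPM in shNT, 3325 to 3565 in shMtfr1l, 1474 to 1646 in shOpa1 and 1997 to 2050 in the double knockdown. Cardiomyocyte markers thus moved with the groups compared below, and none was at 0 in any group. In bulk RNA, fewer cells of a type and less RNA per cell cannot be told apart. Summed levels of 6 leukocyte markers ran from 258 to 365.6 CPM in shNT, 132.5 to 477.6 in shMtfr1l, 229.6 to 550.5 in shOpa1 and 522.7 to 681.6 in the double knockdown. In the same order, 5 smooth muscle markers summed to 4060 to 4436, 3514 to 3753, 3458 to 3608 and 3308 to 3369 CPM, and 5 epicardial and mesothelial markers to 228 to 234.5, 151.6 to 164.4, 161.1 to 203.1 and 158.2 to 183.7. Of each of these last 2 lists, 3 of 5 were lower in shOpa1 than in shNT and 3 of 5 in shMtfr1l. The 5 endothelial markers summed to 19.6 to 27.2 CPM in shNT, 32.7 to 37.8 in shMtfr1l, 15.2 to 24.2 in shOpa1 and 25.1 to 27.6 in the double knockdown. The 3 red blood cell markers stayed at or under 2.49 CPM in sum. The part of these cell types in the results on stress response genes was not tested.

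A sequence often found in promoters that Atf4 binds is the C/EBP-ATF response element, bound by pairs of an Atf4 and a C/EBP protein. Its core, TGATGNAA, or TTNCATCA when read from the other strand, was searched on both strands of the RefSeq promoters (GRCm38.p6, the mm10 assembly), each running from 250 bases before to 50 after a gene's start, and no other motif was searched. Of the 39 members, 30 matched a promoter entry, 1 of them by an older symbol. The core lay in the 300-base window of 13 of these 30 (43.3%) and in the 250 upstream bases of 9 (30%), against 4.51% and 3.91% of the 27025 genes in the table. Since the list holds known Atf4 targets, this share describes the list and is no test. The 5 sequences below belong to members that were called in at least 1 comparison between groups and have the core upstream. Each is given 5′ to 3′ on the strand of its gene, with the 8-base core in capitals.

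Atf3, chr1:191183396-191183483, minus strand: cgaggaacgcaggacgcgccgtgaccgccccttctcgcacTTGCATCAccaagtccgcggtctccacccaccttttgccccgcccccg
Nupr1, chr7:126625562-126625591, minus strand: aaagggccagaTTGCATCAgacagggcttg
Gars, chr6:55037931-55038000, plus strand: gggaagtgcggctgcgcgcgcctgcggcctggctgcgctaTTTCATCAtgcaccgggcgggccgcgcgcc
Asns, chr6:7693214-7693243, minus strand: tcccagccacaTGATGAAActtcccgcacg
Tars, chr15:11399666-11399713, minus strand: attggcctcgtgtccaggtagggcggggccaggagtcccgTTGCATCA

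Relative to the RefSeq start, the cores lie at -110 in Atf3, -110 in Nupr1, -30 in Gars, -23 in Asns and -15 in Tars. The sites of Nupr1 and Asns fall inside an exon of the GENCODE vM21 annotation, and those of Atf3, Gars and Tars do not. Atf3, Nupr1 and Tars share the letters TTGCATCA, and Gars has TTTCATCA, which is the core of Asns on the other strand. Of these 5 genes, Atf3, Nupr1, Gars and Tars were higher after Opa1 knockdown both without and with shMtfr1l, and Asns with shMtfr1l, as described next. Being called was a condition for being shown, so these calls are no test of the element. Sesn2, Gdf15, Slc7a1 and Eprs matched a promoter entry, lack the core in the window and were also higher on both backgrounds. Chac1, Vldlr and Fgf21 also have the core upstream, at -193, -200 and -139, and were called in none of the comparisons between groups. In Yars, Iars and Trib3 the core starts after the gene's start, and in Slc1a4 it straddles it.

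**Figure D1:**
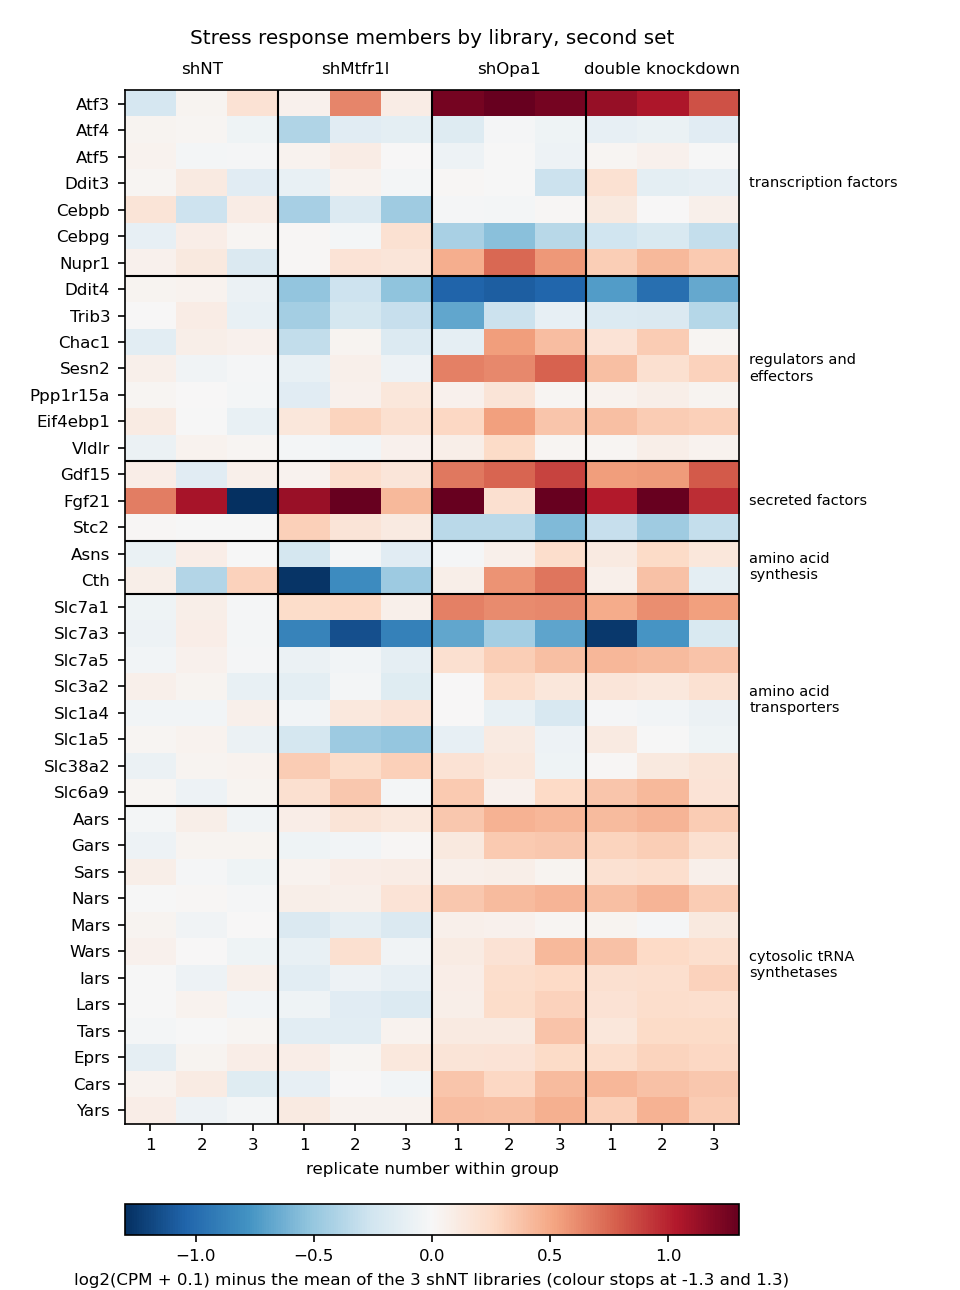
Heat map of the 39 members (rows, grouped by role) in the 12 libraries of the second set (columns, replicates 1 to 3 of each group). Colour is log2(CPM + 0.1) minus the mean of the 3 shNT libraries; Atf3, Sesn2, Gdf15, Slc7a1 and most synthetases are red in the shOpa1 and double knockdown libraries and Ddit4 is blue in them, while Fgf21, at 0 to 1.38 CPM, varies from library to library.

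After Opa1 knockdown, 17 of the 39 members were higher and 5 lower than in shNT (edgeR quasi-likelihood test, Benjamini-Hochberg adjusted p under 0.05 over all genes tested, the rule for every call below). Over all 14162 genes, 29.4% were called in this comparison, 14.3% higher and 15.1% lower. The median log2 fold change was 0.196 over the members and 0.010 over all genes. The same knockdown on top of shMtfr1l, in which the double knockdown is compared with shMtfr1l and shares no library with the first comparison, raised 22 members and lowered 4. There 21.5% of all genes were called, 9.72% higher and 11.7% lower, and the medians were 0.261 and 0.003. The 16 members higher in both were Atf3, Nupr1, Sesn2, Gdf15, Slc7a1, Slc7a5 and the synthetases Aars, Gars, Nars, Wars, Iars, Lars, Tars, Eprs, Cars and Yars, which is 41% of the 39, where 5.9% of all genes tested were higher in both. As shares of the genes called, they were 94.1% of the 17 and 72.7% of the 22, and over all genes 835 were higher in both, 41.2% of 2025 and 60.6% of 1377. Cebpg, Ddit4 and Stc2 were lower in both, 7.69% of the 39 against 8.19% of all genes tested. They were 60% of the 5 and 75% of the 4, close to the 54.2% and 69.7% of all genes called lower that were lower in both. No member was called in opposite directions by the 2 comparisons. Leaving out 1 library lost 6 of the 22 calls in shOpa1 against shNT and 9 of the 26 in the double knockdown against shMtfr1l. Of the 16 members higher in both, Iars, Lars, Tars and Wars were among those lost in the former. Wars, Eprs, Nupr1 and Gdf15 were among those lost in the latter.

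**Figure D2:**
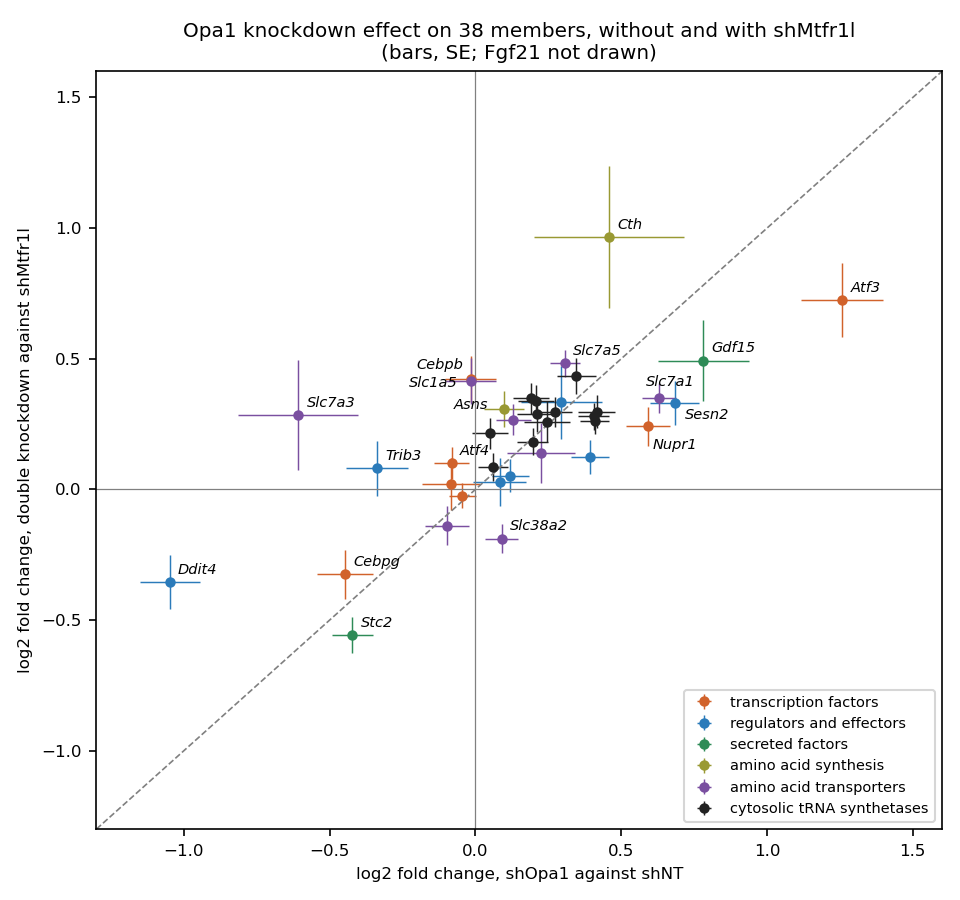
Log2 fold change of 38 members after Opa1 knockdown alone (shOpa1 against shNT, horizontal axis) and on top of shMtfr1l (double knockdown against shMtfr1l, vertical axis), each point 1 gene with bars of 1 SE and the dashed line equal changes. Synthetases (black) lie above 0 on both axes; Atf3 and Ddit4 lie farthest out, at 1.257 and -1.049 on the horizontal axis; Fgf21 is not drawn because of its low counts.

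Among the 7 transcription factors, Atf3 and Nupr1 were higher and Cebpg was lower in shOpa1 than in shNT, while Atf4 itself was not called. Atf3, an early stress-induced factor, was at 11.7, 14 and 15.5 CPM in the shNT libraries and at 32.5, 33.9 and 32.4 in the shOpa1 libraries. The double knockdown libraries had 30, 28.3 and 24.3 CPM and the shMtfr1l libraries 14.2, 21.2 and 14.6, so neither pair of groups overlapped. Atf3 was 2.39-fold higher in shOpa1 than in shNT (log2 1.257 ± 0.141 SE, adjusted p = 4.03e-09) and 1.65-fold higher in the double knockdown than in shMtfr1l (0.725 ± 0.14, adjusted p = 0.000133). Nupr1, a small stress-induced chromatin protein, stood at 92.7, 97.4 and 78.5 CPM in shNT, 123.5, 150.1 and 131.4 in shOpa1, 90.0, 101.2 and 99.6 in shMtfr1l and 111.3, 119.4 and 112.8 in the double knockdown. Its rise was 1.51-fold on the shNT background (adjusted p = 1.33e-07) and 1.18-fold on the shMtfr1l background (adjusted p = 0.0194). Cebpg, a C/EBP protein that pairs with Atf4, read 41.8, 48.0 and 45.9 CPM in shNT against 33.6, 31.0 and 35.1 in shOpa1, and 45.7, 44.5 and 52.0 in shMtfr1l against 37.8, 39.3 and 36.5 in the double knockdown. All 6 libraries with Opa1 knockdown were below all 6 without it, and the fold was 1.36 lower (log2 -0.447 ± 0.095, adjusted p = 0.000286) and 1.25 lower (-0.325 ± 0.094, adjusted p = 0.00997).

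Atf4 mRNA was abundant in every group and was not called in either Opa1 comparison. Its libraries read 221.3, 220.3 and 207.7 CPM in shNT, 192.1, 213.6 and 207.8 in shOpa1, 165.5, 195.3 and 198.8 in shMtfr1l and 201.3, 203.4 and 194.8 in the double knockdown. The groups overlapped in both Opa1 comparisons, with log2 fold changes of -0.082 ± 0.061 (adjusted p = 0.345) and 0.1 ± 0.061 (adjusted p = 0.268). Ddit3, the proapoptotic factor also called CHOP, was at 47.3, 50.3 and 42.0 CPM in shNT and 46.8, 46.4 and 38.3 in shOpa1, and at 43.4, 47.9 and 45.6 in shMtfr1l and 53.4, 42.6 and 43.0 in the double knockdown. The groups overlapped again, with log2 fold changes of -0.085 ± 0.1 (adjusted p = 0.581) and 0.022 ± 0.1 (adjusted p = 0.913). Atf5, a relative of Atf4 linked to mitochondrial protein stress, had the highest level per length of the factors, at 200.2 ± 5.66 RPKM (CPM divided by exon length in kilobases) in shNT, and was not called in any comparison. Cebpb, another C/EBP protein, was at 77.0, 92.1 and 75.4 CPM in shMtfr1l and 113.9, 104.8 and 108.8 in the double knockdown, a 1.34-fold rise (adjusted p = 0.000866). Its shNT libraries read 117.0, 86.7 and 111.5 CPM and its shOpa1 libraries 103.0, 102.3 and 105.6, which overlapped (log2 -0.017, adjusted p = 0.915).

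**Figure D3:**
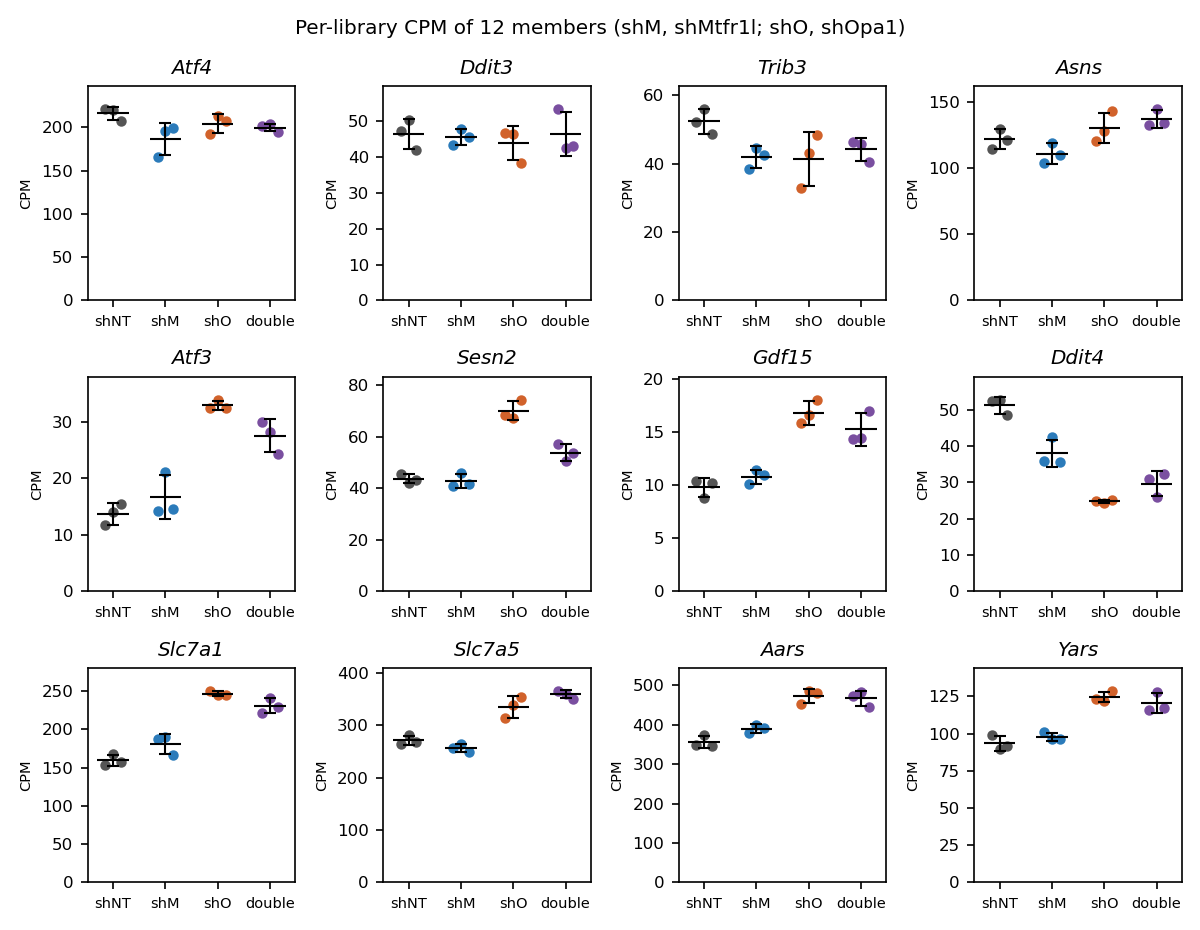
CPM of 12 members in each library of the second set (points), with the group mean and SD (lines and bars, n = 3), on axes that start at 0. The top row holds Atf4, Ddit3, Trib3 and Asns, whose shNT and shOpa1 means differ little or fall; the shOpa1 libraries of Atf3 lie at 32.4 to 33.9 CPM, above the 11.7 to 15.5 of shNT.

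The regulators and effectors split, with Sesn2 and Eif4ebp1 higher and Ddit4 and Trib3 lower in shOpa1 than in shNT. Sesn2, which restrains the growth kinase mTORC1 when leucine is short, was at 45.6, 42.1 and 43.2 CPM in shNT, 68.5, 67.4 and 74.2 in shOpa1, 40.9, 45.8 and 41.7 in shMtfr1l and 57.1, 50.5 and 53.8 in the double knockdown. It was 1.61-fold higher on the shNT background (adjusted p = 2.67e-08) and 1.26-fold higher on the shMtfr1l background (adjusted p = 0.00324). Eif4ebp1, a repressor of cap-dependent translation, read 135.7, 125.8 and 117.8 CPM in shNT against 151.9, 183.1 and 162.4 in shOpa1, a 1.31-fold rise (adjusted p = 9.83e-06). Against shMtfr1l, whose libraries were at 140.2, 154.8 and 146.3 CPM, the double knockdown, at 166.1, 158.5 and 156.1, was not called (log2 0.124 ± 0.065, adjusted p = 0.188). Ddit4, a stress-induced mTORC1 inhibitor also named REDD1, moved the other way from Sesn2. Its libraries were at 52.5, 52.7 and 48.6 CPM in shNT and 24.9, 24.3 and 25.1 in shOpa1, a 2.07-fold fall (log2 -1.049 ± 0.103, adjusted p = 1.75e-10). From 36.0, 42.4 and 35.6 CPM in shMtfr1l it was 1.28-fold lower, at 31.0, 25.9 and 32.2, in the double knockdown (adjusted p = 0.00976).

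Trib3, a pseudokinase that is a common marker of Atf4 activity, stood at 52.3, 56.0 and 48.8 CPM in shNT and 32.8, 43.0 and 48.4 in shOpa1. The highest shOpa1 library lay just below the lowest shNT library, and the fall was 1.27-fold (log2 -0.339 ± 0.106, adjusted p = 0.0132). The call was lost without shOpa1 replicate 1 (adjusted p = 0.17) or shNT replicate 2 (0.0775). In the double knockdown Trib3 read 46.3, 45.9 and 40.4 CPM against 38.4, 44.7 and 42.5 in shMtfr1l (log2 0.08, adjusted p = 0.659). Chac1, which degrades glutathione, had 21.0, 33.2 and 30.1 CPM in shOpa1 and 20.7, 24.1 and 23.8 in shNT, and passed the test after shOpa1 replicate 1 was left out (adjusted p = 0.11 with all libraries and 0.00937 without it). Against shMtfr1l, at 18.3, 23.4 and 20.2 CPM, the double knockdown, at 25.8, 28.8 and 23.2, was not called either (adjusted p = 0.0842), but passed without shMtfr1l replicate 2 (0.0441). Ppp1r15a, the eIF2 phosphatase subunit that ends the response, was at 40.6 ± 0.721 CPM in shNT and 43.0 ± 2.31 in shOpa1 and was called in no comparison, and neither was Vldlr, a lipoprotein receptor, at 136.3 ± 6.2 and 148.1 ± 12.1 CPM.

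Of the 3 secreted factors, Gdf15 was higher and Stc2 lower with Opa1 knockdown. Gdf15, a circulating marker of mitochondrial disease, had 10.4, 8.79 and 10.2 CPM in shNT, 15.8, 16.6 and 18 in shOpa1, 10.1, 11.4 and 10.9 in shMtfr1l and 14.3, 14.4 and 17 in the double knockdown. Every library with Opa1 knockdown lay above every library without it. The rise was 1.72-fold in shOpa1 over shNT (adjusted p = 0.00012) and 1.41-fold in the double knockdown over shMtfr1l (adjusted p = 0.0176). Stc2, a secreted glycoprotein involved in calcium and phosphate balance, was at 110.9, 109.4 and 109.8 CPM in shNT, 86.2, 86.1 and 74.1 in shOpa1, 136.1, 123.9 and 119.4 in shMtfr1l and 89.3, 80.0 and 88.8 in the double knockdown. It fell 1.34-fold (adjusted p = 8.89e-06) and 1.47-fold (adjusted p = 9.21e-08), again with no overlap between groups. Fgf21, a metabolic hormone, was near the floor at 0.427, 0.603 and 0 CPM in shNT and 0.842, 0.285 and 1.38 in shOpa1, and its change was not detectable at this depth (adjusted p = 0.293).

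Of the 2 Opa1 comparisons, the amino acid synthesis genes were called in that on the shMtfr1l background. Asns, the asparagine synthetase, read 114.5, 129.5 and 121.2 CPM in shNT and 120.5, 127.5 and 142.9 in shOpa1, which overlapped (log2 0.097 ± 0.068, adjusted p = 0.312). With shMtfr1l it was at 103.4, 119.1 and 109.5 CPM, and in the double knockdown at 132.3, 144.5 and 134.2, all above, a 1.24-fold rise (log2 0.308 ± 0.069, adjusted p = 0.000781). The difference between these 2 effects of Opa1 knockdown did not pass its own test (interaction 0.211 ± 0.097, adjusted p = 0.275). Cth, which makes cysteine from cystathionine, was at 2.18, 3.04 and 3.89 CPM in shMtfr1l and 5.68, 7.08 and 4.97 in the double knockdown, a 1.95-fold rise (adjusted p = 0.00767). In shNT it was at 5.74, 4.13 and 6.71 CPM, overlapping 5.74, 8.18 and 8.82 in shOpa1 (adjusted p = 0.192), and its interaction did not pass either (0.508 ± 0.373, adjusted p = 0.579).

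Of the 8 amino acid transporters, Slc7a1 and Slc7a5 were higher after Opa1 knockdown on both backgrounds. Slc7a1, the main carrier of cationic amino acids such as arginine, had 153.0, 168.1 and 157.2 CPM in shNT and 250.3, 244.5 and 245.3 in shOpa1, and 187.6, 190.2 and 166.5 in shMtfr1l and 221.9, 241.4 and 229.9 in the double knockdown. Its 1.55-fold rise in shOpa1 had the smallest adjusted p of the 39 members (log2 0.629 ± 0.058, adjusted p = 3.67e-11), and the rise on the shMtfr1l background was 1.27-fold (adjusted p = 1.38e-05). Slc7a5, the light chain of the large neutral amino acid carrier, stood at 264.6, 281.6 and 268.6 CPM in shNT, 313.4, 340.0 and 355.0 in shOpa1, 257.6, 264.1 and 249.8 in shMtfr1l and 365.9, 360.8 and 351.0 in the double knockdown. The folds were 1.24 (adjusted p = 1.06e-05) and 1.4 (adjusted p = 3.01e-09). Slc3a2, the heavy chain that pairs with Slc7a5, was called on the shMtfr1l background, at 170.0, 182.1 and 165.8 CPM in shMtfr1l and 206.2, 204.2 and 212.7 in the double knockdown (1.2-fold, adjusted p = 0.000894). In shOpa1, at 186.4, 216.9 and 204.9 CPM, it overlapped the 193.4, 190.3 and 172.7 of shNT (adjusted p = 0.106, and 0.0323 without shOpa1 replicate 1), and the interaction did not pass (0.138 ± 0.085, adjusted p = 0.473).

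Slc7a3, a second cationic carrier, went the other way from Slc7a1, from 12.6, 14 and 13 CPM in shNT to 8.22, 9.65 and 8.16 in shOpa1 (1.52-fold lower, adjusted p = 0.0214). That call did not hold without shNT replicate 2 (0.0787) or 3 (0.0502) or shOpa1 replicate 1 (0.0717) or 3 (0.0702). Slc1a5, a glutamine carrier, was at 50.9, 43.0 and 42.1 CPM in shMtfr1l and 64.7, 59.5 and 57.5 in the double knockdown (1.33-fold higher, adjusted p = 0.000415), while shNT, at 60.7, 61.7 and 56.5, and shOpa1, at 55.4, 64.6 and 57, overlapped. Slc38a2, a neutral amino acid carrier, was 1.14-fold lower in the double knockdown, at 326.3, 352.5 and 362.9 CPM, than in shMtfr1l, at 405.8, 381.0 and 399.9 (adjusted p = 0.0131). In shNT and shOpa1 it overlapped, at 305.3, 330.4 and 333.3 CPM against 366.4, 354.7 and 310.4 (adjusted p = 0.252), though it passed without shOpa1 replicate 3 (0.0389). Slc1a4 and the glycine carrier Slc6a9 were not called in either Opa1 comparison, with log2 fold changes of -0.139 to 0.225.

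The 12 cytosolic tRNA synthetases among the members, which charge tRNAs with their amino acids, moved together. After Opa1 knockdown alone 10 of 12 were higher and none lower, where 14.3% of all genes were higher. Their median log2 fold change was 0.227, against 0.010 over all genes. On the shMtfr1l background 11 of 12 were higher and none lower, where 9.72% of all genes were higher. The medians there were 0.284 and 0.003. Of the remaining cytosolic synthetases and their scaffold proteins, 3 of 11 were called after Opa1 knockdown alone, where 29.4% of all genes were called. On the shMtfr1l background 2 of these 11 were called, where 21.5% of all genes were. Their median log2 fold change there was 0.052, with 7 positive and 4 negative. The alanine enzyme Aars was at 348.6, 373.8 and 345.2 CPM in shNT, 452.7, 485.5 and 479.1 in shOpa1, 377.8, 399.6 and 392.0 in shMtfr1l and 472.5, 482.7 and 446.0 in the double knockdown. The 6 libraries with Opa1 knockdown lay above the other 6, and the folds were 1.33 (log2 0.409 ± 0.05, adjusted p = 2.14e-08) and 1.2 (0.261 ± 0.049, adjusted p = 0.000105). The tyrosine enzyme Yars read 99.3, 89.4 and 91.8 CPM in shNT, 123.1, 122.1 and 128.7 in shOpa1, 101.2, 96.4 and 96.2 in shMtfr1l and 115.7, 128.2 and 117.4 in the double knockdown, with folds of 1.33 (adjusted p = 2.47e-06) and 1.23 (adjusted p = 0.000532). For Nars, the asparagine enzyme, the libraries were at 233.8, 237.9 and 232.2 CPM in shNT, 300.0, 312.4 and 319.8 in shOpa1, 248.0, 246.0 and 265.7 in shMtfr1l and 307.3, 319.5 and 294.5 in the double knockdown, and the folds were 1.32 and 1.21. The cysteine enzyme Cars rose from 93.8, 97.9 and 81.7 CPM in shNT to 116.4, 109.9 and 121.1 in shOpa1 (1.27-fold, adjusted p = 0.000118), and from 84.1, 91.2 and 88.6 in shMtfr1l to 122.4, 118.0 and 115.7 in the double knockdown (1.35-fold, adjusted p = 6.71e-06).

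The other called synthetases rose less on the shNT background, between 1.14-fold and 1.21-fold. Gars, the glycine enzyme, had 201.7, 216.2 and 216.0 CPM in shNT, 229.9, 266.6 and 270.0 in shOpa1, 203.6, 206.1 and 213.7 in shMtfr1l and 257.7, 263.8 and 244.4 in the double knockdown. Iars, for isoleucine, had 130.5, 125.0 and 136.6, then 138.3, 153.2 and 155.9, then 118.5, 124.5 and 121.2, then 150.8, 151.9 and 160.9 CPM in the same order of groups. Lars, for leucine, had 125.2, 129.2 and 122.2, then 132.4, 148.0 and 154.3, then 120.5, 113.4 and 111.0, then 142.6, 147.4 and 146.3 CPM. In Gars, Iars and Lars the groups did not overlap on either background, and the lowest of the 3 shOpa1 libraries was replicate 1 each time. Eprs, the glutamate and proline enzyme, read 296.2, 329.0 and 342.0 CPM in shNT, 360.4, 364.7 and 383.6 in shOpa1, 340.6, 328.5 and 353.2 in shMtfr1l and 377.9, 394.2 and 388.8 in the double knockdown. Tars (threonine) went from 107.8 ± 1.73 to 124.7 ± 13 CPM and from 102.6 ± 7.77 to 125.3 ± 5.01, and Wars (tryptophan) from 98.2 ± 3.79 to 116.3 ± 13.4 and from 100.2 ± 11.7 to 119.9 ± 7.07. Sars (serine) was called on neither background, at 264.2 ± 13 CPM in shNT, 275.2 ± 4.27 in shOpa1, 278.3 ± 4.77 in shMtfr1l and 295.4 ± 16 in the double knockdown. Mars (methionine) was called on the shMtfr1l background, at 106.0 ± 3.44 CPM in shMtfr1l and 122.9 ± 6.27 in the double knockdown (1.16-fold, adjusted p = 0.00914), against 118.8 ± 3.44 in shNT and 122.9 ± 1.35 in shOpa1, and its interaction did not pass (adjusted p = 0.362). Mars and Ddit3 overlap at their ends on opposite strands, and counting used strand. Levels per length in shNT ran from 28.3 RPKM for Cars to 88.5 for Nars.

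Several of these smaller rises depended on 1 library. In shOpa1 against shNT, the calls of Iars, Lars, Tars and Wars were lost without shOpa1 replicate 3 (adjusted p = 0.0864, 0.0833, 0.244 and 0.187), that of Iars also without shOpa1 replicate 2 (0.0705), and those of Iars, Tars and Wars without shNT replicate 2 (0.0897, 0.0537 and 0.0514), with Wars lost as well without shNT replicate 3 (0.079). Between 6 and 10 synthetases were called across these omissions, all higher. In the double knockdown against shMtfr1l, Wars was lost without shMtfr1l replicate 1 or 3 or double knockdown replicate 1 (0.108, 0.077 and 0.0955), Mars without double knockdown replicate 3 (0.0735) and Eprs without shMtfr1l replicate 2 (0.0529). In that comparison the calls of Nupr1 and Cth were also lost without shMtfr1l replicate 1 (0.123 and 0.0657) or double knockdown replicate 2 (0.0921 and 0.0564), and that of Ddit4 without shMtfr1l replicate 2 (0.0883) or double knockdown replicate 2 (0.099). Gdf15 was lost there without shMtfr1l replicate 1 (0.0792) or double knockdown replicate 3 (0.103), Slc38a2 without shMtfr1l replicate 1 (0.0621) or double knockdown replicate 1 (0.116), and Cebpg without shMtfr1l replicate 3 (0.089). The 10 cardiomyocyte markers moved with these comparisons, 8 of them lower in shOpa1 than in shNT and all 10 lower in the double knockdown than in shMtfr1l, and their part in the synthetase result was not tested.

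After Mtfr1l knockdown alone more members were called lower than higher, while by sign 19 log2 fold changes were positive and 20 negative. Against shNT, 3 of the 39 members were higher and 7 lower, where 10.8% of all genes were called, 5.56% higher and 5.19% lower. The median log2 fold change was -0.005 over the members and 0.003 over all genes, and over the 12 synthetases it was 0.002. No synthetase was called by edgeR, with 3 at an unadjusted p under 0.05, and DESeq2 called 1, Mars, which was lower (adjusted p = 0.0453). Lower were Atf4 (1.16-fold, log2 -0.214 ± 0.061, adjusted p = 0.0163), Cebpb (1.29-fold, adjusted p = 0.00724), Ddit4 (1.35-fold, adjusted p = 0.00296), Trib3 (1.25-fold, adjusted p = 0.0429), Cth (1.82-fold, adjusted p = 0.0323), Slc7a3 (1.96-fold, adjusted p = 0.00116) and Slc1a5 (1.31-fold, adjusted p = 0.00178). Higher were Slc38a2 (1.22-fold, adjusted p = 0.000335), Slc7a1 (1.14-fold, adjusted p = 0.0311) and Eif4ebp1 (1.16-fold, adjusted p = 0.0245). In Slc7a3 the 3 shMtfr1l libraries, at 7.17, 5.9 and 7.13 CPM, were all below the 12.6 to 14 of shNT. Slc7a1 and Cebpb were the called members whose groups overlapped, since shMtfr1l replicate 3 of Slc7a1 (166.5 CPM) was below shNT replicate 2 (168.1) and shNT replicate 2 of Cebpb (86.7) was below shMtfr1l replicate 2 (92.1). The 10 cardiomyocyte markers also differed here, with 8 higher and 1 lower in shMtfr1l, and their part in these changes was not tested.

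Of these 10 calls, 6 did not hold with each library left out in turn. Without 1 library, Atf4 was lost when shNT replicate 1 (0.0537) or 2 (0.0667) or shMtfr1l replicate 1 (0.217) was left out, and Cebpb when shMtfr1l replicate 1 was (0.0556). Trib3 was lost when replicate 1 (0.0957) or 2 (0.183) of shNT, replicate 1 (0.205) or 3 (0.0836) of shMtfr1l or double knockdown replicate 2 (0.0513) was left out, and with the replicate number as a block (0.0501). Eif4ebp1 was lost on leaving out replicate 2 or 3 of shNT (0.0748 and 0.174) or of shMtfr1l (0.132 and 0.0505). Slc7a1 was lost on leaving out replicate 1 or 3 of shNT (0.124 and 0.108) or replicate 1 or 2 of shMtfr1l (0.148 and 0.161), and Cth on the same omissions (0.0841, 0.18, 0.196 and 0.0757). Ddit4, Slc7a3, Slc1a5 and Slc38a2 passed with each library left out in turn. Stc2, at 136.1, 123.9 and 119.4 CPM against 109.4 to 110.9 in shNT, did not pass with all libraries (adjusted p = 0.0571) and did without shMtfr1l replicate 3 (0.0404) or shOpa1 replicate 3 (0.0418).

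Added to Opa1 knockdown, Mtfr1l knockdown changed 1 member. In the double knockdown against shOpa1, 4.77% of all genes were called, and of the members Sesn2 alone was, 1.3-fold lower (log2 -0.379 ± 0.082, adjusted p = 0.00313), with 57.1, 50.5 and 53.8 CPM all below the 68.5, 67.4 and 74.2 of shOpa1. The call held with each single library left out and was lost without replicate 2 or 3 of every group (0.0814 and 0.0732). Opa1 mRNA itself was higher in the double knockdown than in shOpa1, at 18.3 ± 2.34 against 8.96 ± 3.16 CPM, and the part of this remaining Opa1 in the difference was not tested. Nupr1 was next, at -0.238 ± 0.075 on the log2 scale (adjusted p = 0.0614), and passed without shNT replicate 3 (0.0413) or shOpa1 replicate 1 (0.0355). The 12 synthetases lay between -0.049 and 0.103 on the log2 scale, with 0 called by edgeR, 0 by DESeq2 and 0 at an unadjusted p under 0.05.

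Against shNT, the double knockdown had 20 members higher and 4 lower, where 23.1% of all genes were called, 11.2% higher and 11.9% lower. This comparison shares its shNT libraries with the single knockdowns, and its values are given for the members beside theirs. Atf3 was 2.0-fold higher (adjusted p = 8.81e-07), Gdf15 1.56-fold (adjusted p = 0.00191), Slc7a1 1.45-fold (adjusted p = 3.98e-09), Slc7a5 1.32-fold (adjusted p = 1.47e-07), Nupr1 1.28-fold (adjusted p = 0.00058), Eif4ebp1 1.27-fold (adjusted p = 0.000121) and Sesn2 1.23-fold (adjusted p = 0.00616). The synthetases were called higher in 11 of 12, all but Mars, with a median of 0.268 on the log2 scale. Ddit4 was 1.73-fold lower (adjusted p = 1.61e-07), Slc7a3 1.61-fold (adjusted p = 0.0112), Stc2 1.28-fold (adjusted p = 0.000169) and Cebpg 1.2-fold (adjusted p = 0.0407). Slc3a2 (adjusted p = 0.0427) and Slc6a9 (adjusted p = 0.0359) were the other 2 higher members. With the replicate number as a block, Cebpg (0.0506) and Slc3a2 (0.0503) were no longer called. Cebpg was lost when any of shNT replicates 2 and 3 and double knockdown replicates 1, 2 and 3 was left out (adjusted p = 0.173, 0.106, 0.0956, 0.0567 and 0.127), as was Slc3a2 (0.0574, 0.25, 0.0837, 0.0682 and 0.139). Slc6a9 was lost without shNT replicate 1, 2 or 3 or double knockdown replicate 1 or 2 (0.0593, 0.127, 0.066, 0.102 and 0.144). Slc7a3 was lost without shNT replicate 2 or double knockdown replicate 1 or 2 (0.0514, 0.129 and 0.0501), Sesn2 without double knockdown replicate 1 (0.0504) and Lars without shNT replicate 3 (0.0517). Sars was lost without shNT replicate 2 or 3 or double knockdown replicate 1 or 2 (0.075, 0.12, 0.0885 and 0.119), and Tars without shNT replicate 2 or double knockdown replicate 2 or 3 (0.0562, 0.0726 and 0.0704).

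The interaction of the 2 knockdowns, the Opa1 effect with shMtfr1l minus the Opa1 effect without it, was tested for each member. It was called for 5 of 39 members, where 3.56% of all genes were called. Both targets were higher in the double knockdown than in the matching single knockdown, and Mtfr1l had a called interaction itself (0.778 ± 0.152, adjusted p = 0.00146). The interaction therefore cannot tell whether the knockdowns acted independently, and the part of these target levels in it was not tested. Ddit4 fell by 1.05 on the log2 scale without shMtfr1l and by 0.36 with it (interaction 0.694 ± 0.145, adjusted p = 0.0029). Slc1a5 was at -0.015 and 0.416 (0.431 ± 0.123, adjusted p = 0.0401) and Cebpb at -0.017 and 0.422 (0.439 ± 0.124, adjusted p = 0.0489). Slc38a2 was at 0.09 and -0.188 (-0.278 ± 0.08, adjusted p = 0.0413), and Slc7a1, higher on both backgrounds, at 0.629 and 0.349 (-0.28 ± 0.081, adjusted p = 0.045). With the replicate block, Cebpb (0.107), Slc38a2 (0.0778) and Slc7a1 (0.0559) were no longer called and Nupr1 was (0.0481, against 0.0626 without the block). Without the robust option only Ddit4 was called. Ddit4 passed with each single library left out and was lost without replicate 1 of every group (0.113). With 1 library left out, Cebpb held only without shNT or shMtfr1l replicate 2 (adjusted p otherwise 0.0687 to 0.144), Slc1a5 without shNT replicate 3, shMtfr1l replicate 1, shOpa1 replicate 2 or double knockdown replicate 3 (otherwise 0.0654 to 0.126), Slc7a1 without shNT replicate 2, shMtfr1l replicate 3 or double knockdown replicate 2 (otherwise 0.0586 to 0.135), and Slc38a2 without shMtfr1l replicate 2, shOpa1 replicate 3 or double knockdown replicate 3 (otherwise 0.0526 to 0.168). For the synthetases the interactions ran from -0.147 to 0.165, with 0 called by edgeR or DESeq2 and 1 at an unadjusted p under 0.05.

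Other genes of the pathway outside the 39 were read from lists whose contents were chosen by function, with earlier results of these data known. Their shares called describe the lists and are no independent test. The serine, one-carbon, proline and cystine genes, which supply mitochondrial folate metabolism and glutathione, had 9 of 12 higher and none lower in shOpa1 against shNT, where 14.3% of all genes were higher, and their median was 0.415 on the log2 scale against 0.010 over all genes. In the double knockdown against shMtfr1l 10 of 12 were higher and none lower, where 9.72% of all genes were higher, with medians of 0.405 and 0.003. Shmt2, the mitochondrial serine hydroxymethyltransferase, was at 80.0, 68.3 and 71.0 CPM in shNT and 106.1, 104.8 and 100.2 in shOpa1 (log2 0.506 ± 0.072, adjusted p = 5.72e-07). Phgdh, the first enzyme of serine synthesis, went from 45.6, 44.9 and 41.1 to 61.3, 67.1 and 66.9 CPM (0.57 ± 0.088, adjusted p = 2.5e-06), and Mthfd2, a mitochondrial folate enzyme, from 53.0, 57 and 60.0 to 72.4, 79.4 and 87.6 (0.493 ± 0.077, adjusted p = 3.42e-06). In none of these 3 genes did the groups overlap. With shMtfr1l alone, 1 of the 12 was called, Aldh18a1, which was lower (-0.255 ± 0.068, adjusted p = 0.00956).

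The other lists are read against the 29.4% of all genes called in shOpa1 against shNT. Shares called were 27.3% for the remaining cytosolic synthetases and their scaffold proteins, 17.6% for the mitochondrial synthetases and 18.8% for the eIF2 kinases and regulators, at or below that background. They were 40% for the endoplasmic reticulum stress genes, 50% for the mitochondrial chaperones and proteases, 33.3% for the other transporters and 50% for the other ATF, CREB and C/EBP factors, each a list of 15 or fewer. The remaining cytosolic synthetases and scaffold proteins had 3 of 11 called, all higher: Farsb (0.539 ± 0.107 on the log2 scale), Vars (0.299 ± 0.062) and Rars (0.212 ± 0.069). Of these 11, 9 had positive and 2 negative log2 fold changes, with a median of 0.187 against 0.010 over all genes. Of the 17 mitochondrial tRNA synthetases, Lars2 (0.943 ± 0.162) and Nars2 (0.61 ± 0.212) were higher and Ears2 (-0.6 ± 0.172) was lower. Upstream, 3 of 16 eIF2 kinases and regulators were called, all higher: Ppp1r15b, the constitutive eIF2 phosphatase subunit (0.386 ± 0.062), Impact, an inhibitor of the kinase Gcn2 (0.338 ± 0.072), and Eif2b3 (0.396 ± 0.149). The 15 chaperones and targets of endoplasmic reticulum stress had 3 higher and 3 lower, led by falls of Sel1l (-0.576 ± 0.061, adjusted p = 1.1e-09) and Dnajb9 (-1.005 ± 0.12, adjusted p = 1.45e-08) and a rise of Hyou1 (0.252 ± 0.055). The 8 mitochondrial chaperones and proteases had 3 higher and 1 lower, led by Hspd1 (0.785 ± 0.08, adjusted p = 5.15e-10) and Hspa9 (0.365 ± 0.049). The 15 other amino acid transporters had 2 higher and 3 lower, and the 10 tested ATF, CREB and C/EBP factors had 4 higher, Cebpd among them (0.618 ± 0.103), and Atf6 lower (-0.322 ± 0.061). In the double knockdown against shMtfr1l, the same lists had 2 higher and 0 lower, 1 and 1, 2 and 1, 2 and 2, 3 and 0, 3 and 1, and 2 and 1, in the order just given, where 21.5% of all genes were called. Of the genes named here, Lars2 (0.874 ± 0.162), Hspd1 (0.306 ± 0.081) and Atf6 (0.22 ± 0.061) were also called in shMtfr1l against shNT, all higher. In that comparison 10.8% of all genes were called. The interaction was called for Hspd1 (-0.407 ± 0.113, adjusted p = 0.0318) and not for Lars2 (-0.905 ± 0.227, adjusted p = 0.0828).

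**Figure D4:**
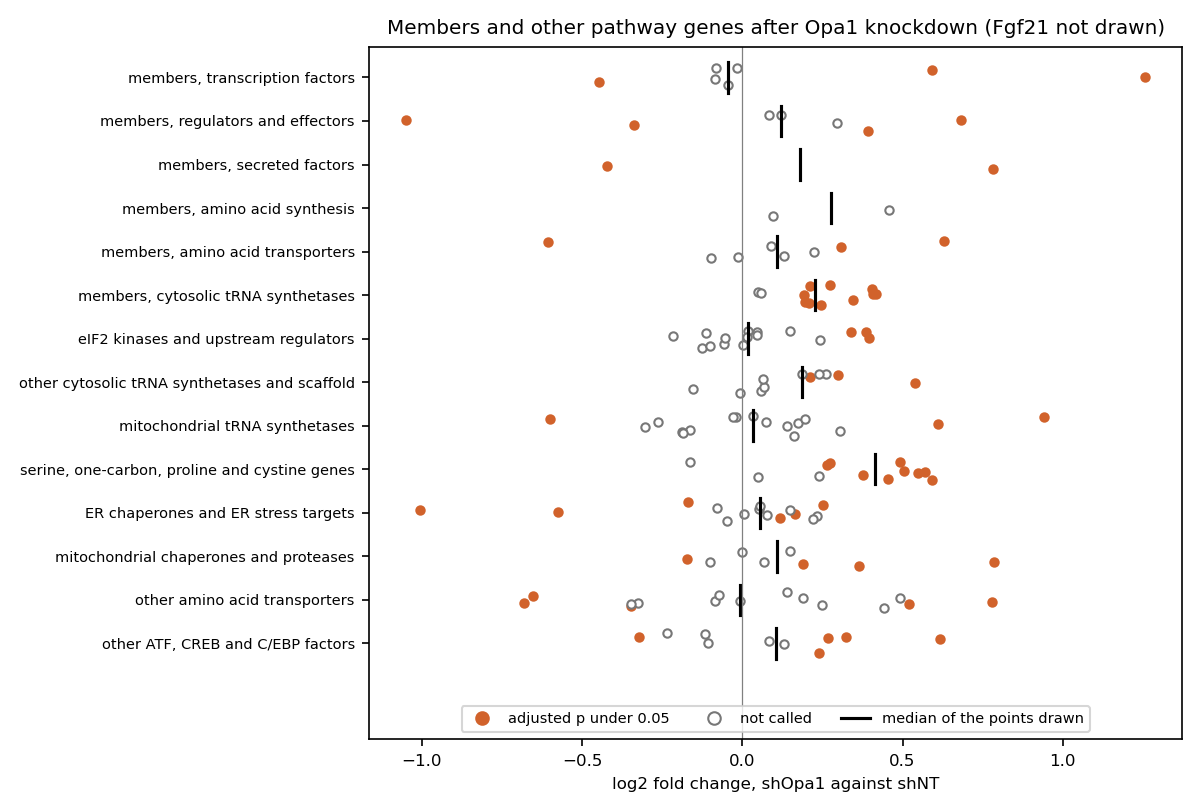
Log2 fold change of each gene in shOpa1 against shNT, with the member groups in the upper 6 rows and the other pathway lists below (filled points, adjusted p under 0.05; open points, not called; black bar, median of the points drawn). The member synthetases lie at 0.049 to 0.416 with a median of 0.227 and the serine, one-carbon, proline and cystine genes have a median of 0.415, while the lists of eIF2 regulators and endoplasmic reticulum stress genes are centred near 0.

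The first set gives the shMtfr1l and shNT comparison once more, with 1 labelled reprogramming sample each. Both titles read day 7, where the second set holds days 7, 8 and 9, and the shMtfr1l title gives a knockdown of 85%. The table has 3 count columns per sample, and the labels do not say whether these are separate cultures or runs of 1 library, so they were summed and no test was made. Its tables were scaled apart from the second set. Mtfr1l was at 79.2 CPM in shNT and 8.73 in shMtfr1l. Of the 39 members 14 were higher and 25 lower in shMtfr1l, and none was past 1.5-fold higher, while 16.8% of the 15198 genes kept there were past 1.5-fold in either direction. Slc7a3 and Fgf21 were past 1.5-fold lower, Slc7a3 at 2.55 CPM in shNT and 0.951 in shMtfr1l (168 and 61 counts), and Fgf21 at 12 and 4 counts. Slc1a5 was at 21.2 and 15.9 CPM, and Slc7a3 and Slc1a5 were lower in the second set as well. Slc7a1 and Slc38a2, both higher in shMtfr1l in the second set, were at 129.1 and 128.2 and at 546.5 and 540.8 CPM, and their count columns overlapped. The median log2 difference was -0.077 over the members and 0 over all genes. Of the synthetases, 10 of 12 were higher, with a median of 0.081. Of the other lists, the remaining cytosolic synthetases and scaffold proteins had 10 of 11 higher (median 0.206) and the mitochondrial synthetases 13 of 17. The endoplasmic reticulum stress genes had 15 of 15 higher (0.21) and the mitochondrial chaperones and proteases 8 of 8 (0.128). The serine, one-carbon, proline and cystine genes had 6 of 12 and the other transporters 6 of 15. Atf4 was at 159.1 CPM in shNT and 139.1 in shMtfr1l, and Cebpb at 92.0 and 81.1. Ddit4, lower in shMtfr1l in the second set, was at 22.7 and 24.9 CPM, and Trib3, also lower there, at 12.7 and 14.6.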

How the data were processed

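Libraries were made from Trizol-extracted total RNA, per the labels. The deposited files hold raw gene-level counts that the authors made with featureCounts 2.0.6 on the UCSC gene annotation of mm10, per the file headers. Counting used strand (setting 2), took each mate of a pair by itself, so that 65.9% of counts from 1 to 20 were even, and left out multi-mapping reads. The submitters' processing notes list FastQC and DESeq2, and the aligner was not given in the sources used here. Of 18 samples, the 12 libraries of the second set entered 1 fit. In the first set, the 3 count columns of each reprogramming sample were summed, while 12 fibroblast columns fit more than 1 label and were not used.

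Counts were scaled with TMM, filtered with filterByExpr and tested in R 4.3.3 with edgeR 4.0.16 (quasi-likelihood test, robust option, 1 coefficient per group, 8 residual degrees of freedom). Adjustment of p-values was by Benjamini-Hochberg over 14162 genes, and genes under 0.05 were called. The fit was tested on simulated data first. CPM values are scaled by TMM, RPKM uses the exon length in the files, and the floor of 3 counts covers counting error only. Within groups, chi-square per gene between libraries was 5.37 to 10.3, and no library copied another. As no label names separate animals or cultures, p-values measure the spread between these libraries, and an exact permutation of 3 against 3 cannot go below a 2-sided p of 0.1.

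The titles tie replicate numbers 1, 2 and 3 to days 7, 8 and 9. The reported fit had no term for day, so its spread between replicates includes any difference between days. The numbers paired libraries only in the alternative fit with the replicate block. The 18 correlations of deviations between same-numbered libraries ran from -0.189 to 0.122, and 2 of 12 libraries correlated best with their own number. The members and lists were chosen with earlier results of these data known. Full values were given for the 20 called members with the smallest adjusted p and for Atf4, Ddit3, Asns and Trib3, and of each other list up to 3 called genes with the smallest adjusted p; other genes named were chosen after their values were seen. Promoters were read from RefSeq, and 1 promoter sequence is not reported here. Alternatives were other scaling, DESeq2 1.42.0, no filter, the 2 groups alone, the replicate block and leaving out libraries, and the fit without the robust option was added after seeing the data.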

Additional observations from a re-analysis of the deposited data

Results flagged for a closer look

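For 5 of the 39 members the effect of Opa1 knockdown differed between cells without and with shMtfr1l, by the edgeR interaction test, which called 3.56% of all genes. The replicate block lost 3 of these 5 calls (Cebpb, Slc38a2 and Slc7a1), the fit without the robust option lost 4 (all but Ddit4), and leaving out 1 library lost the same 4 in turn, while Ddit4 was lost without replicate 1 of every group (adjusted p = 0.113). Ddit4 had the interaction with the smallest adjusted p, 0.694 on the log2 scale (adjusted p = 0.0029), with 52.5, 52.7 and 48.6 CPM in shNT, 24.9, 24.3 and 25.1 in shOpa1, 36.0, 42.4 and 35.6 in shMtfr1l and 31.0, 25.9 and 32.2 in the double knockdown. Cebpb had 0.439 (adjusted p = 0.0489) and Slc1a5 0.431 (adjusted p = 0.0401), both lower in shMtfr1l than in the other 3 groups by mean. Slc38a2 had -0.278 (adjusted p = 0.0413), with its highest mean in shMtfr1l, and Slc7a1 had -0.28 (adjusted p = 0.045), with a smaller rise on the shMtfr1l background. Opa1 mRNA was at 8.96 ± 3.16 CPM in shOpa1 and 18.3 ± 2.34 in the double knockdown (SD, n = 3), and the part of this difference in the interactions was not tested. Mtfr1l mRNA had a called interaction of its own, 0.778 on the log2 scale (adjusted p = 0.00146), and its part was not tested either.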

How the results depend on the processing

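No call on a member changed direction in any setting run. The counts of members called stayed within 1.5 times of those reported in the 4 comparisons of shMtfr1l, shOpa1 and the double knockdown with shNT and of the double knockdown with shMtfr1l, under DESeq2 size factors, the DESeq2 Wald test, no filter on low counts, the replicate block, the fit without the robust option and the 2 groups alone. In the double knockdown against shOpa1 the count was 1 as reported, and 2 with no filter and with the 2 groups alone. The interaction had 5 calls as reported, 3 with DESeq2 size factors, 3 with the replicate block and 1 without the robust option. Leaving out 1 library or 1 replicate number gave 3 to 11 calls for shMtfr1l against shNT, 17 to 22 for shOpa1 against shNT, 16 to 24 for the double knockdown against shNT, 19 to 26 against shMtfr1l and 0 to 2 against shOpa1, and 1 to 4 for the interaction; in part this follows from fewer libraries. Calls lost in at least 1 setting were 9 of 10 for shMtfr1l, 6 of 22 for shOpa1, 9 of 24 for the double knockdown against shNT, 13 of 26 against shMtfr1l and 1 of 1 against shOpa1 (Sesn2), and 5 of 5 for the interaction. The replicate block changed no other call on a member than those given with the results. The first set had 2 members past 1.5-fold in every setting. Depth limits Fgf21 most, as it lies near the floor of 3 counts. Cth and Slc7a3 were also among the members with low counts, and both were called in some comparisons.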
